A study of Mus musculus with 6 samples.

Results

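NF-kB is a family of transcription factors that bind DNA as pairs and switch on genes of inflammation, survival and cell adhesion. In a resting cell the pairs are held in the cytoplasm by inhibitor proteins of the IkB family, and a signal such as a Toll-like receptor ligand or TNF leads a kinase complex to mark the inhibitor for destruction, so that the freed pairs enter the nucleus. Several inhibitor genes are themselves NF-kB targets, which closes a feedback loop. Macrophages use the pathway for much of their inflammatory output. The 10 genes described here were chosen by name out of 39017 genes in the count table. They are listed as subunits of the factor (Rela, Relb, Rel, Nfkb1 and Nfkb2) or as inhibitors and negative regulators (Nfkbia, Nfkbib, Nfkbie, Nfkbiz and Tnfaip3). Nfkbiz is grouped with the inhibitors by its family name. All 10 were among the 15567 genes that had enough counts to be tested.

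RNA was sequenced from adherent bone marrow cultures of wild-type BALB/c mice, an inbred strain, with 3 libraries from old animals (more than 78 weeks) and 3 from young animals (3 weeks), and no treatment is given for either age. Cells from crushed limb bones were expanded in serum-containing medium once the cells that did not attach had been removed, and the submitters describe them as macrophages positive for F4/80 and CD169. Each library came from 10000 cells, and the labels do not state that same-age libraries are from different mice, so the p-values cover library-to-library spread, which may be technical. The question is whether expression of the NF-kB genes differs with the age of the donor.

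Both defining macrophage markers were present at both ages. Adgre1, which encodes F4/80, lay between 197 and 245 CPM (counts scaled to library size, with TMM factors) in old libraries and between 385 and 530 CPM in young ones, and Siglec1, which encodes CD169, between 37.9 and 48.4 CPM in old and between 125 and 138 CPM in young libraries. The summed level of 16 macrophage markers was 5273 to 5673 CPM in old and 9280 to 10933 CPM in young libraries. Genes of connective tissue cells were abundant too: 12 stromal markers summed to 24044 to 30311 CPM in old libraries and to 31788 to 70846 CPM in young ones, where young replicate 3 held the highest value and stood apart from young replicates 1 and 2 (35397 and 31788 CPM). In bulk RNA, fewer cells of a type and less RNA per cell cannot be told apart. Total counts ranged from 34391206 to 43367734 per library.

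None of the 10 genes passed the test for a difference between old and young cultures. With edgeR's quasi-likelihood test 0 were higher and 0 lower in old libraries at an adjusted p of 0.05, where 5.84% of all genes tested were called higher and 4.7% lower, 10.5% in all, and the adjusted p-values of the 10 ran from 0.286 to 0.958. At an unadjusted p under 0.05 the count was also 0, against 23.8% of all genes, and it was 0 with DESeq2 (24.5% of all genes) and with limma-voom (24.4%). After adjustment these tools called 0 of the 10 too, beside 15.9% and 10.6% of all genes. Old and young CPM ranges were separate for 1 of the 10, Rel, with the old libraries below, and among all genes for 30.2%, with the old libraries below in 14.3%. For 8 of the 10 the 95% interval of the log2 fold change (old minus young, for that gene alone) lay within -1 and 1, that is, within a doubling or halving, as it did for 70.5% of all genes. The median log2 fold change of the 10 was -0.08, beside -0.01 over all genes tested, and the median size of change regardless of sign was 0.14, beside 0.20. The 10 genes together took 0.0534% ± 0.0021 of all counts in old libraries and 0.0518% ± 0.0033 in young ones (SD, n = 3 each).

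**Figure D1:**
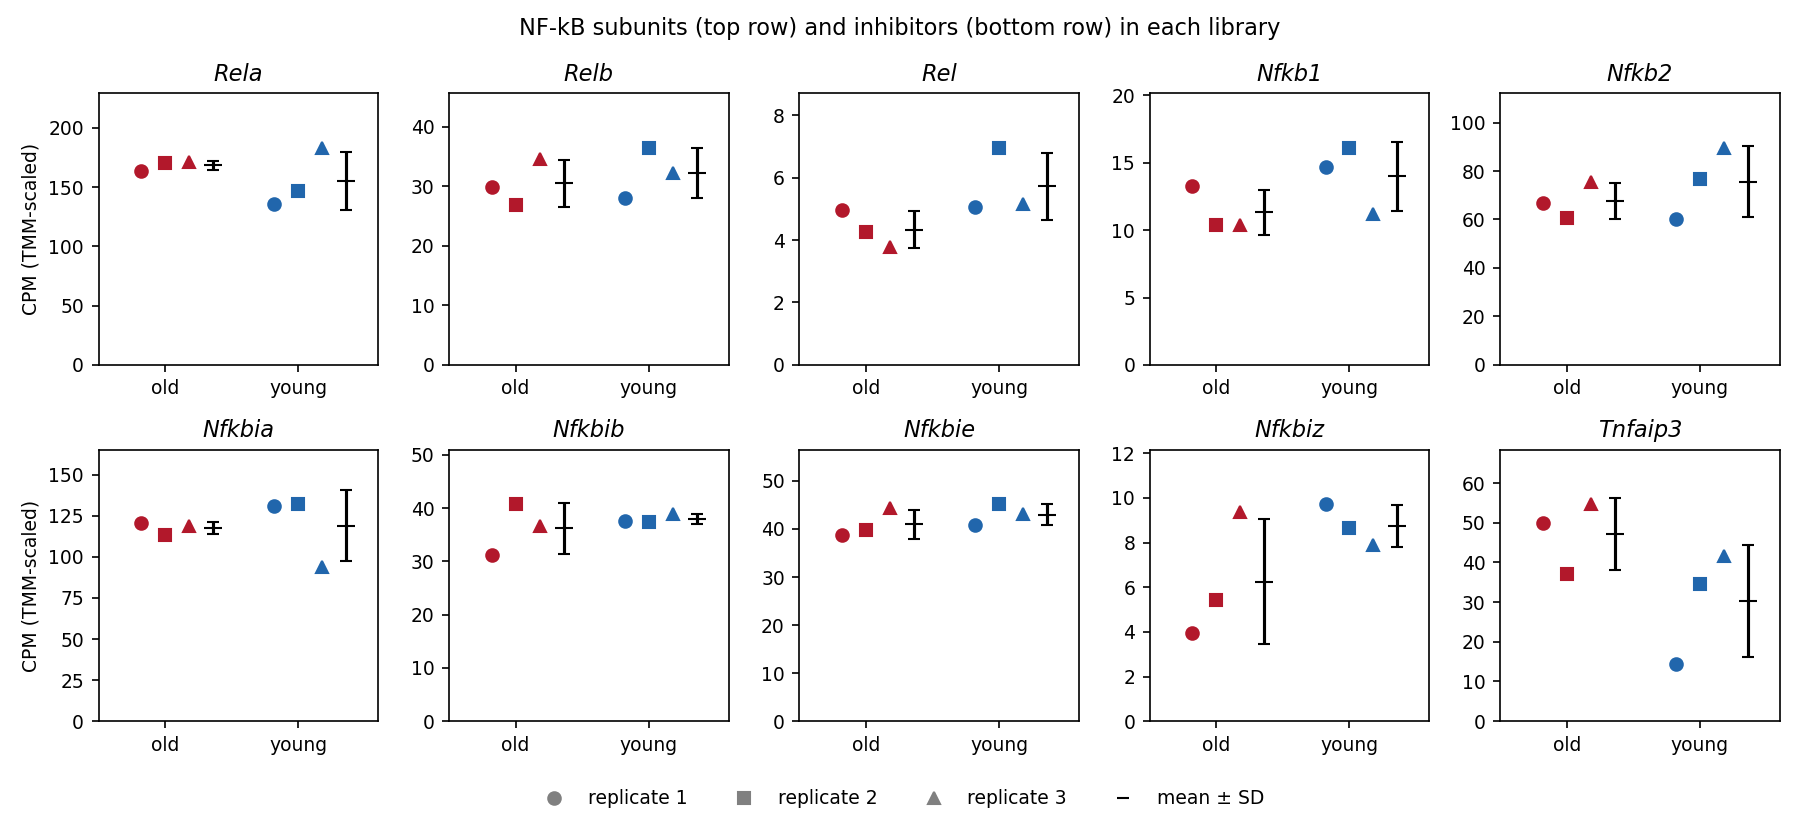
Normalised level (CPM, linear axes from 0) of each gene in each library, old libraries left and young libraries right, with symbols for the replicate and black bars for mean ± SD (n = 3). Old and young points overlap in every panel but that of Rel, and young replicate 3 is the highest of the 6 libraries for Rela and the lowest for Nfkbia.

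Positions are given on the mm10 build, from GENCODE M21, where all 10 genes are protein-coding. Rela (chr19:5637483-5648130), which encodes the main activating subunit, was the most abundant subunit gene per kilobase of exon. It had 163, 170.4 and 171 CPM in old replicates 1, 2 and 3, against 136, 146 and 183 CPM in young replicates 1, 2 and 3. The old libraries lay close together, and the young ones lay on both sides of them. The means were 168 ± 4.12 CPM in old and 155 ± 24.8 CPM in young libraries (SD, n = 3 each), a log2 fold change of 0.12 with SE 0.12 (edgeR adjusted p = 0.623). Without young replicate 3, Rela was called higher in old libraries by 1.19-fold (log2 fold change 0.25, SE 0.06, edgeR adjusted p = 0.0384). In that comparison 16.5% of all genes were called and 9.14% were called higher. The call of Rela was absent in the fits that left out any other single library, with adjusted p between 0.716 and 0.924. Young replicate 3 had the highest summed stromal markers, the highest summed macrophage markers and the lowest TMM factor of any library. The part of these traits in this dependence was not tested.

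The other activating subunits, made by Relb and Rel, were less abundant. Relb (chr7:19606217-19629438), whose product pairs mainly with the processed product of Nfkb2 in the non-canonical pathway, had 29.9, 26.9 and 34.6 CPM in old replicates 1, 2 and 3 and 28.1, 36.5 and 32.3 CPM in young replicates 1, 2 and 3. These ranges overlapped, and the log2 fold change was -0.08 with a 95% interval from -0.41 to 0.24 (edgeR adjusted p = 0.787). Rel (chr11:23736847-23770970) encodes c-Rel, a subunit found mainly in cells of blood origin. It had 4.97, 4.26 and 3.77 CPM in the old libraries and 5.05, 6.96 and 5.17 CPM in the young ones. Alone among the 10 genes, its young libraries all lay above its old ones, as they did for 14.3% of all genes tested. The lowest young value exceeded the highest old value by little, and the log2 fold change of -0.40 (SE 0.20, 95% interval from -0.87 to 0.07) did not pass (edgeR adjusted p = 0.286). Beside it, 16 genes restricted to leukocytes summed to 3150 to 3265 CPM in old and 3702 to 4378 CPM in young libraries. Their median log2 fold change was -0.38 and 5 of 16 were called lower, beside 4.7% of all genes. On leaving out 1 library, from 1 to 8 of the 16 were called lower. The part of these genes in the level of Rel was not tested.

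Nfkb1 (chr3:135584655-135691547) and Nfkb2 (chr19:46304320-46312385) encode long precursor proteins that are cut to give DNA-binding subunits and that act as inhibitors while whole. Nfkb1 had 13.3, 10.4 and 10.4 CPM in old replicates 1, 2 and 3 and 14.7, 16.1 and 11.2 CPM in young replicates 1, 2 and 3. The old libraries held the lower end of the range and young replicate 3 fell among them. The log2 fold change was -0.30 with SE 0.18 (edgeR adjusted p = 0.379), and leaving out 1 library moved it between -0.44 (without young replicate 3, adjusted p = 0.101) and -0.19. Nfkb2 had 67.0, 60.8 and 75.6 CPM in old libraries and 60.3, 76.8 and 89.6 CPM in young ones, so the old values lay inside the young range. Its log2 fold change was -0.16 with a 95% interval from -0.52 to 0.21 (edgeR adjusted p = 0.624), and 18.1% of its exon length is shared with the gene model AC114539.1, so some of its reads could belong to that model.

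Nfkbia (chr12:55489410-55492647) encodes IkB-alpha, an inhibitor that NF-kB itself induces rapidly, and it was the most abundant of the 10 genes per kilobase of exon. Its level was 121, 113 and 119 CPM in old replicates 1, 2 and 3 and 131, 132 and 94.0 CPM in young replicates 1, 2 and 3. Young replicates 1 and 2 lay above every old library and young replicate 3 below every one of them. The means were 118 ± 3.74 CPM in old and 119 ± 21.8 CPM in young libraries (SD, n = 3 each), with a log2 fold change of -0.02 (95% interval from -0.34 to 0.30, edgeR adjusted p = 0.958). Without young replicate 3 the log2 fold change was -0.16, with SE 0.06 and an adjusted p of 0.126 by edgeR. At an unadjusted p under 0.05 that fit held 3 of the 10 genes, Rela, Nfkb1 and Nfkbia, beside 30.5% of all genes.

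Nfkbib (chr7:28758251-28767512) and Nfkbie (chr17:45555703-45563169) encode IkB-beta and IkB-epsilon, the other classical inhibitors that hold the factor in the cytoplasm, and their log2 fold changes had the smallest standard errors of the 10, 0.11 and 0.09. Nfkbib had 31.3, 40.7 and 36.6 CPM in old libraries and 37.5, 37.3 and 38.9 CPM in young ones. The young libraries differed from each other by 1.04-fold between lowest and highest and lay within the old range. The log2 fold change of Nfkbib was -0.07 with a 95% interval from -0.33 to 0.20 (edgeR adjusted p = 0.787), and 16.4% of its exon length is shared with other gene models, chiefly Ccer2. Nfkbie had 38.8, 39.7 and 44.3 CPM in old libraries and 40.7, 45.2 and 43.0 CPM in young ones. Its interval, from -0.29 to 0.15 around a log2 fold change of -0.07, was the narrowest of the 10 (edgeR adjusted p = 0.725).

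The largest spread within an age was seen for Nfkbiz and Tnfaip3, both of which are known as early response genes of the pathway. Nfkbiz (chr16:55811375-55838899) encodes the nuclear protein IkB-zeta, which acts at selected promoters such as that of Il6. It had 3.95, 5.42 and 9.35 CPM in old replicates 1, 2 and 3, a 2.37-fold span, and 9.73, 8.65 and 7.87 CPM in young replicates 1, 2 and 3, a 1.24-fold span. Old replicate 3 lay among the young libraries and the other old ones below them. The log2 fold change was -0.49 with SE 0.31 (edgeR adjusted p = 0.403), and leaving out 1 library moved it between -0.90 (without old replicate 3, adjusted p = 0.0694) and -0.24 (without old replicate 1, adjusted p = 0.727).

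Tnfaip3 (chr10:19000910-19015657) encodes a ubiquitin-editing enzyme that shuts down signalling to the kinase complex. It had 49.9, 37.1 and 54.7 CPM in old replicates 1, 2 and 3 and 14.4, 34.6 and 41.7 CPM in young replicates 1, 2 and 3. Young replicate 1 was far below the other libraries of either age, giving a 2.90-fold span in young libraries against 1.48-fold in old ones. The log2 fold change of 0.64, the largest of the 10, had SE 0.36 and a 95% interval from -0.20 to 1.49, which takes in both no change and a 2.81-fold rise (edgeR adjusted p = 0.347). Leaving out 1 library moved it between 0.31 (without young replicate 1, adjusted p = 0.432) and 0.95 (without young replicate 3, adjusted p = 0.213).

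**Figure D2:**
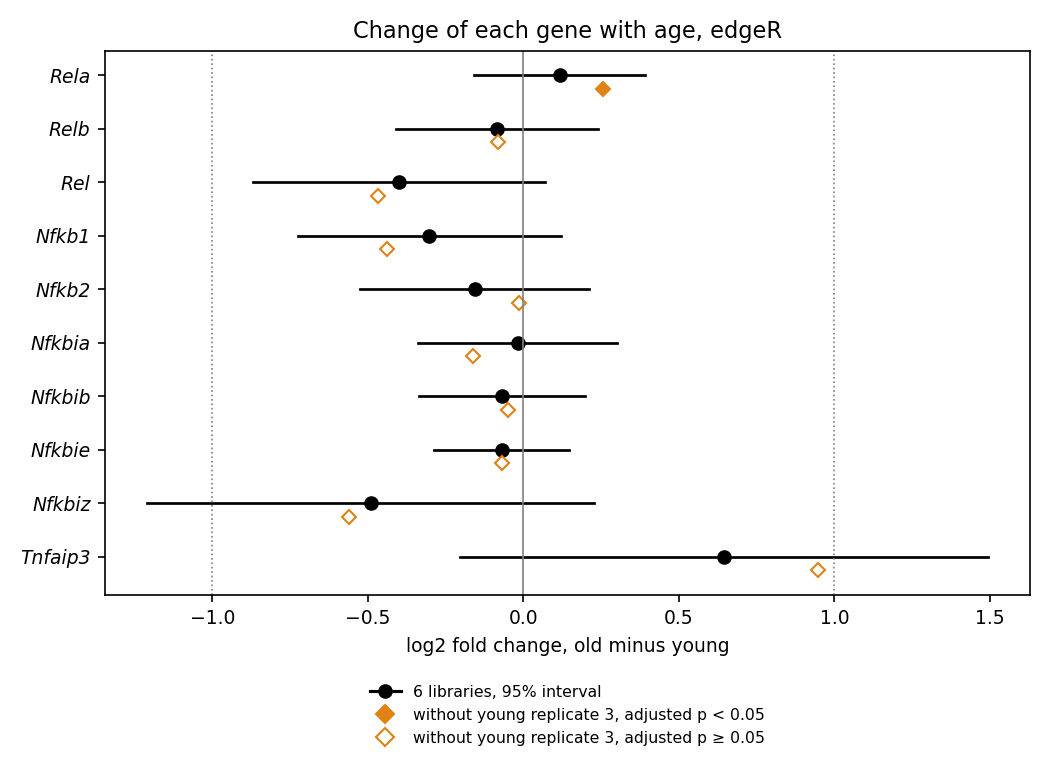
Log2 fold change of each gene between old and young libraries by edgeR: black points and lines are the estimates and 95% intervals from 6 libraries, and diamonds are the estimates without young replicate 3, filled where the adjusted p was under 0.05. Every black interval includes 0, that of Nfkbiz reaches past the dotted line at -1 and that of Tnfaip3 past the one at 1, and the filled diamond is that of Rela at 0.25.

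Levels of different genes were compared per kilobase of exon (RPKM, CPM divided by the exon length of all transcripts). This length ran from 1610 bases for Nfkbia to 12061 for Nfkb1, and the order of the genes depends on it. Nfkbia was highest, at 73.0 ± 2.33 RPKM in old and 74.0 ± 13.5 RPKM in young libraries (SD, n = 3 each), and Rela followed at 54.8 ± 1.34 RPKM in old and 50.5 ± 8.07 RPKM in young libraries. Nfkbib, Nfkb2 and Nfkbie formed a middle group, between 12.7 and 19.5 RPKM over the 6 libraries. Relb came next, at 7.84 ± 0.998 RPKM in old and 8.31 ± 1.08 RPKM in young libraries, and then Tnfaip3, at 6.54 ± 1.26 RPKM in old and 4.18 ± 1.96 RPKM in young libraries. Nfkbiz, Nfkb1 and Rel were lowest, the last at 0.581 ± 0.0807 RPKM in old and 0.767 ± 0.143 RPKM in young libraries. The ranges over 6 libraries were separate between Rela and Nfkbib, between Nfkbie and Relb and between Tnfaip3 and Nfkbiz, and those of all other neighbours in this order overlapped.

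Ratios between the genes were taken inside each library, where library scaling cancels. Of 10 ratios compared, 0 separated the ages: the exact two-sided permutation p-values ran from 0.2 to 1, with 0.1 the smallest that 3 against 3 libraries allow, and from 0.5 to 1 after Benjamini-Hochberg adjustment over the 10. The ratio of Nfkbia to Rela per kilobase, of the main inhibitor to the main activating subunit, was 1.41, 1.27 and 1.33 in old replicates 1, 2 and 3 and 1.84, 1.72 and 0.979 in young replicates 1, 2 and 3. It was thus even over the old libraries, and in young replicate 3 it was lower than in any of the other 5 libraries. The ratio of Nfkb2 to Relb, the partners of the non-canonical pathway, was the tightest in old libraries, at 1.897, 1.92 and 1.85 in old and 1.82, 1.79 and 2.35 in young libraries. Nfkb2 exceeded Nfkb1 by 13.3, 15.4 and 19.2 times per kilobase in old libraries and by 10.8, 12.5 and 21.1 times in young ones. The size of this ratio depends on the exon length of all transcripts, 12061 bases for Nfkb1 and 4584 for Nfkb2. Reads of AC114539.1, which shares 18.1% of the Nfkb2 exon length, could also add to it.

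**Figure D3:**
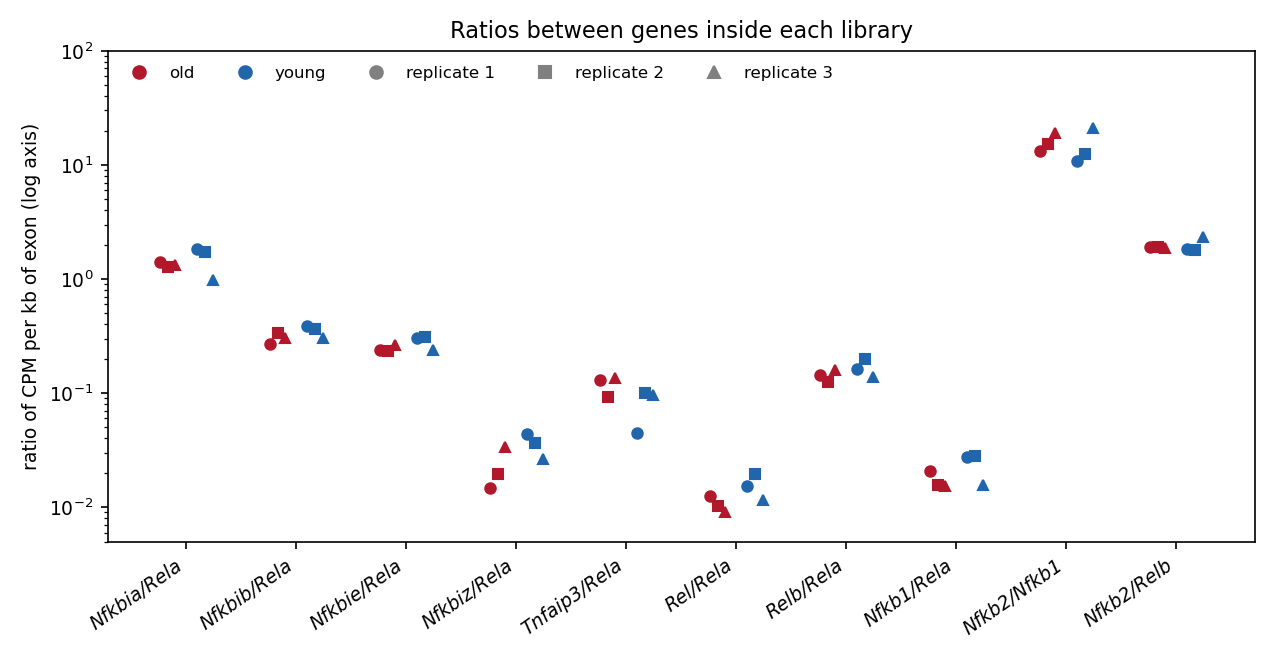
Ratio between the levels of the named genes inside each library (CPM per kilobase of exon, log axis), old libraries in red left of young libraries in blue, with symbols for the replicate. Old and young points overlap for each of the 10 ratios. The young triangle, replicate 3, lies apart from the points of both ages for Nfkbia over Rela and Nfkb2 over Relb. It also lies away from the other young points for Nfkb1 over Rela, Nfkbie over Rela and Nfkb2 over Nfkb1.

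The start regions of these genes are shown because the feedback genes among them are known targets of NF-kB. RefSeq start sites on the GRCm38.p6 build were matched for 7 of the 10, Rel, Rela, Nfkb2, Nfkbia, Nfkbib, Nfkbie and Tnfaip3, and the 250 bases before each were searched on both strands for the consensus kappa-B site of 10 bases. It was found for 5 of the 7, Rel, Nfkb2, Nfkbia, Nfkbie and Tnfaip3, and among all genes with such a window 8.23% held it. A gene counted if any of its windows held a site. Nfkb2 and Tnfaip3 had multiple windows, which raises their chance of a match, and another window of Tnfaip3 held no site. The looser motif GGGNNNNNCC, which covers every consensus site, was found for 6 of the 7 and for 48.7% of all genes. Neighbouring matches can overlap, as in Rel. A match is a run of letters and does not show that the factor binds there. The sequences before the starts of Nfkbia (chr12:55492648-55492897, minus strand), Nfkbie (chr17:45555450-45555699, plus strand) and Rel (chr11:23770971-23771219, minus strand) follow, with the consensus sites in capitals. The printed bases of these 3 genes lie outside annotated exons, which leaves out the last base of the Rel window.
Nfkbia: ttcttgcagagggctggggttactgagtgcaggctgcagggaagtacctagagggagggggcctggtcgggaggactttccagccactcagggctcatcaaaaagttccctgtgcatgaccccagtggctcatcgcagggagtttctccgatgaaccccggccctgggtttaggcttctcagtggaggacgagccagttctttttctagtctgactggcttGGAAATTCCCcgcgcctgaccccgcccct
Nfkbie: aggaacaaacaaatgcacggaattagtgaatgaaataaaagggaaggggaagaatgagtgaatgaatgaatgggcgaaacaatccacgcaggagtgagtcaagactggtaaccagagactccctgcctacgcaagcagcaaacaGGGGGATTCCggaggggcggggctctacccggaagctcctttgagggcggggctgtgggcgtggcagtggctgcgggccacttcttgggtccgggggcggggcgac
Rel: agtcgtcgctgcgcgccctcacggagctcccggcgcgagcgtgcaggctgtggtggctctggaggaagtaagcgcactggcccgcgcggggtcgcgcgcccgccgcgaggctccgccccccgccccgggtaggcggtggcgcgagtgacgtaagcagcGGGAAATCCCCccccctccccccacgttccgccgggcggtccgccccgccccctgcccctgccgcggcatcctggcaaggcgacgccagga

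In Nfkbia the site began 29 bases before the start, in Nfkbie 106 bases before it, and in Rel the overlapping sites began 92 and 91 bases before it. Among its sites, read on the strand of the gene, Nfkb2 held GGGAATTCCC on chromosome 19 at 46304698 to 46304707 and Tnfaip3 held GGAAATCCCC on chromosome 10 at 19015413 to 19015422. Both positions lie inside the annotated span of their gene, unlike the sites printed for Nfkbia, Nfkbie and Rel. The 5 genes with a site had log2 fold changes between old and young libraries from -0.40 for Rel to 0.64 for Tnfaip3, none of them called, and Rela, whose window held the looser motif only, had 0.12.

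Upstream of the factor, of 16 genes of the IkB kinase complex and the kinases before it, 0 were called higher and 1 lower in old libraries, or 6.25% beside 10.5% of all genes. The one called was Ripk1, a kinase at the TNF and cell death receptors, at 57.9 ± 0.521 CPM in old and 81.3 ± 5.78 CPM in young libraries (SD, n = 3 each), 1.40-fold lower with an edgeR adjusted p of 0.012. The call was lost without any one of old replicates 1, 2 or 3 (adjusted p up to 0.0619). The members with the highest CPM, which is not corrected for gene length, were Map3k3, at 102 ± 10.4 CPM in old and 96.5 ± 10.99 CPM in young libraries, and Map3k7, which encodes the kinase TAK1, at 79.2 ± 5.85 CPM in old and 88.1 ± 13.3 CPM in young libraries, and neither passed.

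Among 18 TRAF adaptors, ubiquitin ligases and their partners, 2 were called higher and 0 lower, or 11.1% beside 10.5% of all genes. Traf5, an adaptor of TNF family receptors, had 17.3 ± 1.16 CPM in old and 10.9 ± 0.792 CPM in young libraries, 1.59-fold higher (edgeR adjusted p = 0.0144). Birc2, which encodes a ubiquitin ligase that restrains the non-canonical pathway, had 38.2 ± 2.67 CPM in old and 28.4 ± 2.24 CPM in young libraries and was 1.34-fold higher (edgeR adjusted p = 0.0414). Leaving out 1 library ended the Traf5 call for old replicates 1 and 2 and young replicates 1 and 2, with adjusted p up to 0.0724. The Birc2 call was lost without each library but young replicate 3 (adjusted p up to 0.162). Ube2n and Fbxw11 had the highest CPM, at 182 ± 6.84 and 167 ± 4.19 CPM in old and 192 ± 17.2 and 157 ± 6.72 CPM in young libraries. Ube2v1, chosen after its values were seen, had 6.82, 109 and 109 CPM in old replicates 1, 2 and 3 against 8.16, 6.28 and 12.2 CPM in young replicates 1, 2 and 3, and it was not called (edgeR adjusted p = 0.0892). Without old replicate 1 it was called higher (log2 fold change 3.61, edgeR adjusted p = 0.00463), and it was not called in the fits without any other single library (highest adjusted p 0.239). Since 69.1% of its exon length is shared with another gene model, Gm20431, its counts are uncertain.

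Of 20 other IkB proteins and negative regulators, 2 were called higher and 1 lower, or 15% beside 10.5% of all genes. Tnip3, whose product binds that of Tnfaip3, had 3.06 ± 0.321 CPM in old and 8.23 ± 2.52 CPM in young libraries and was 2.69-fold lower (edgeR adjusted p = 0.0147). Trib3, a pseudokinase gene that is also induced by the stress factor ATF4, had 15.5 ± 3.95 CPM in old and 7.21 ± 1.81 CPM in young libraries and was 2.15-fold higher (edgeR adjusted p = 0.0324). Pdlim2, which encodes a ligase that marks nuclear RelA for destruction, had 55.6 ± 1.35 CPM in old and 44.7 ± 0.424 CPM in young libraries and was 1.24-fold higher (edgeR adjusted p = 0.0397). Each of these calls was lost without old replicate 1, 2 or 3 and without young replicate 1, and leaving out young replicate 2 ended those of Trib3 and Pdlim2 too (highest adjusted p 0.163). The members with the highest CPM, Rnf11 at 269 ± 19.9 CPM in old and 218 ± 26.0 CPM in young libraries and Tax1bp1 at 160.3 ± 11.9 CPM in old and 153 ± 24.1 CPM in young libraries, did not pass.

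Among the listed target genes, some were higher and others lower in old libraries. Of 35 tested, 6 were called higher and 4 lower in old libraries, or 28.6% beside 10.5% of all genes, with a median log2 fold change of -0.29. The list was chosen with earlier results of these data known, so this share does not measure how often targets change. Ptx3, a secreted pattern recognition protein, had 821 ± 31.4 CPM in old and 235 ± 37.4 CPM in young libraries, 3.49-fold higher (edgeR adjusted p = 0.000492). Il6, the cytokine, had 4.98 ± 0.688 CPM in old and 1.11 ± 0.420 CPM in young libraries and was 4.48-fold higher (edgeR adjusted p = 0.00762). The adhesion gene Vcam1, the chemokine gene Cxcl5, the stress gene Gadd45b and the collagenase gene Mmp13 were the other 4 called higher, by 1.63, 3.13, 1.48 and 1.57-fold. In the opposite direction, Saa3, an acute-phase gene, had 3.41 ± 1.64 CPM in old and 53.2 ± 24.2 CPM in young libraries, 15.5-fold lower (edgeR adjusted p = 0.00377). Ccl5, Cxcl10 and Icam1 were also lower, by 4.75, 6.51 and 1.46-fold, and 11.7% of the exon length of Icam1 is shared with Gm47079.

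The calls of Ptx3, Vcam1, Saa3, Il6 and Ccl5 held on leaving out each single library. Those of Cxcl10 and Icam1 did not survive leaving out old replicate 1 or 2 (highest adjusted p 0.0575). The call of Cxcl5 held without old replicate 1 alone, and that of Gadd45b without young replicate 3 alone. That of Mmp13 was lost without each of the 6 libraries (adjusted p up to 0.151 over these 3 genes). Other targets were called only with a library left out: Mmp9 lower without old replicate 3, and, without young replicate 3, Ier3 higher and Cxcl2, Cd44, Il1b and Ccl4 lower. Fth1, the heavy chain of ferritin, had the highest CPM of the targets, at 9637 ± 253 CPM in old and 9096 ± 1041 CPM in young libraries and did not pass, and Mmp13 was second. Of the remaining list members, Il12b, Sele and Csf2 had too few counts to test and Csf3 had 0 counts in every library. Marker lists were chosen, like the targets, with earlier results known, and over all genes tested 5.84% were called higher and 4.7% lower. Macrophage markers were called lower for 15 of 16 (median log2 fold change -0.91). B and plasma cell markers were called higher for 9 of 10 tested (738 to 1066 CPM summed in old and 353 to 409 CPM in young libraries). Megakaryocyte markers were called higher for 5 of 7, with sums of 234 to 339 CPM in old and 47.1 to 84.3 CPM in young libraries. Mast cell and basophil markers were called higher for 5 of 8, with sums of 64.2 to 106 CPM in old and 22.02 to 32.8 CPM in young libraries. Dendritic cell markers were called higher for 3 of 7 tested, with sums of 38.1 to 62.9 CPM in old and 14.7 to 15.7 CPM in young libraries, and Clec9a among them had 0 counts in every library. Of 10 osteoblast markers 1 was called higher and 5 lower, while their sum was 7145 to 8763 CPM in old and 6397 to 8014 CPM in young libraries. Of 12 stromal markers 2 were called higher and 3 lower, and of 8 T and NK cell markers 1 higher and 1 lower, while 0 of 10 neutrophil and 0 of 6 endothelial markers were called. The part of these cell types in the levels of the target genes was not tested.

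**Figure D4:**
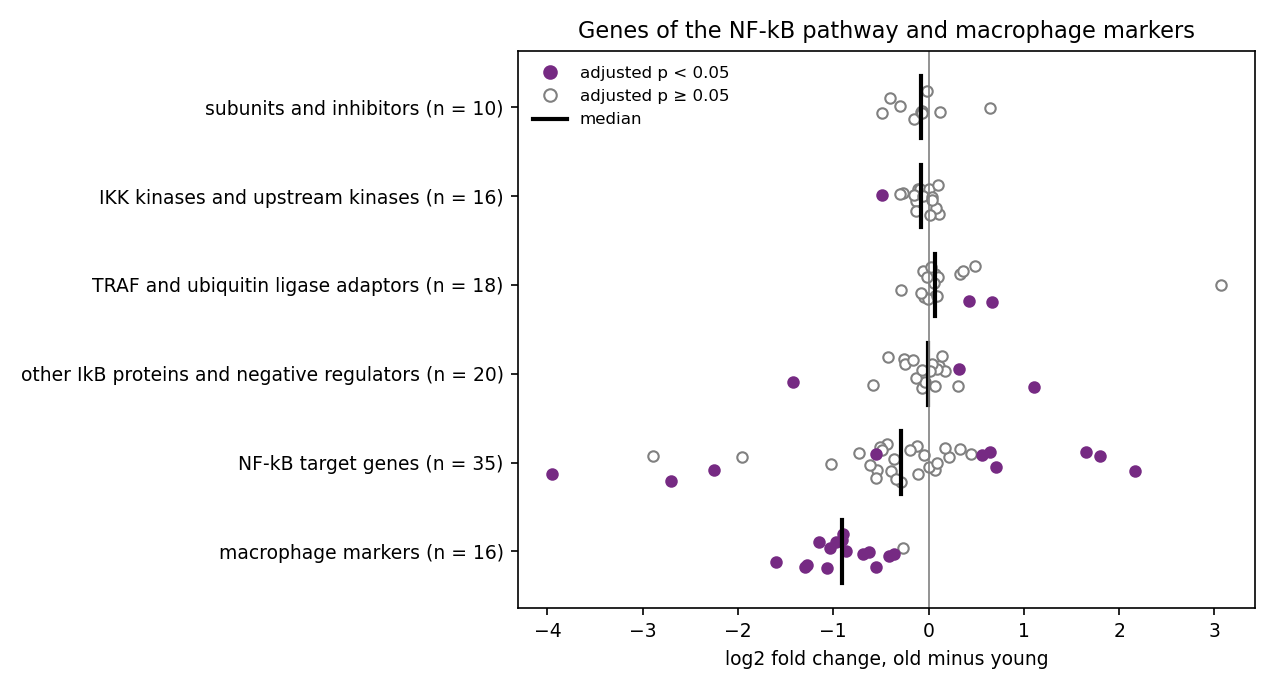
Log2 fold change (old minus young, edgeR) of every tested gene in 6 lists, each point 1 gene, filled where the adjusted p was under 0.05, with the median as a black bar and vertical jitter for legibility. The subunits and inhibitors have no filled point, the 35 target genes have 10 on both sides of 0, and 15 of the 16 macrophage markers are filled and below 0.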

How the data were processed

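The authors deposited raw read counts per Ensembl gene for 6 libraries. Per the labels' protocols, cDNA was amplified with a low-input kit and sequenced as read pairs of 100 bp. Per the submitters' processing notes, the build was mm10 and the tools named were STAR 2.6.1a, HISAT2 2.1.0 and StringTie 1.3.4d, with cutadapt 1.18, Trim Galore 0.50, SAMtools 1.9 and Picard 2.18.15. The counter, its strand setting, the annotation release and how multi-mapping reads were treated: not given in the sources used here. Amplified reads are not independent molecules.

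Symbols, exon lengths and overlaps came from GENCODE M21. The test was run with edgeR 4.0.16 in R 4.3.3 (filterByExpr, TMM, robust quasi-likelihood test, no replicate block), with Benjamini-Hochberg adjustment over 15567 genes at 0.05. SE was taken as the size of the log2 fold change over the root of F. Ratios were tested with an exact permutation test in Python 3.11.15. Alternatives were DESeq2 1.42.0, limma-voom (limma 3.58.1), other scalings, filters and dispersions, a replicate block, and leaving out each library. No pair of same-age libraries was alike within sampling noise. Chi-square per degree of freedom, where higher means less alike, was 106 and 112 for young replicate 3 with young replicates 1 and 2. Other same-age pairs had 22.2 to 29.8. The procedure was also tested on simulated data, with the recovery not given here.

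The 10 genes, the pathway and marker lists and the tests were chosen with earlier results of these data known. In the lists, every called gene (at most 6 a direction) and the 2 with the highest CPM are named. Bcl2a1d of the target list had no matching identifier. No set test was made.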

Additional observations from a re-analysis of the deposited data

How the results depend on the processing

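The 10 NF-kB genes kept a count of 0 called in either direction under DESeq2 size factors, upper-quartile factors, the DESeq2 test, limma-voom, either filter, the non-robust dispersion and the replicate block, and 5 of the 6 fits that left out a library; without young replicate 3, 1 was called higher (Rela). Leaving out 1 library moved the log2 fold change of Nfkbia between -0.16 and 0.062, of Relb between -0.19 and 0.012 and of Nfkbib between -0.16 and 0.027, so their signs were not fixed. The log2 ratio difference of Nfkbia to Rela ranged from -0.42 to 0.037 in these fits, of Nfkb2 to Nfkb1 from -0.045 to 0.44 and of Nfkb2 to Relb from -0.13 to 0.067.

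Over all genes, the 909 called higher ranged from 418 to 1459 and the 731 called lower from 294 to 1168 on leaving out 1 library, and 1137 were called lower with the DESeq2 test. Calls in the lists ranged in the same fits from 0 to 1 lower for the kinases, from 0 to 2 higher for the TRAF adaptors and ligases, from 0 to 2 higher and 0 to 1 lower for the other regulators, and from 3 to 5 higher and 2 to 8 lower for the targets. With no low-count filter, 1 adaptor and 1 other regulator were called higher. With the replicate block these counts were 1 and 1, and 3 targets were called higher. With the DESeq2 test 8 targets were called lower. Marker calls moved too on leaving out 1 library. Macrophage markers had 11 to 15 called lower, osteoblast markers 3 to 6 and stromal markers 0 to 3. Called higher were 5 to 8 B and plasma cell, 2 to 6 megakaryocyte, 2 to 5 mast cell and basophil and 2 to 3 dendritic cell markers. Those called higher numbered 0 to 1 for osteoblast and 2 to 3 for stromal markers. The cause of these shifts was not tested. The replicate numbers are not stated to mark a shared animal, batch or day, so they were not taken to pair the libraries. Same-numbered libraries of the ages correlated in their deviations by 0.0883, 0.0340 and 0.0900 over genes. Differently numbered libraries were not compared, so these values do not decide on pairing. The lowest count of the 10 genes in any library was 136, for Rel.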
